A study of Mus musculus with 4 samples.

Results

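Endothelial marker genes were examined on 4 arrays of adult mouse heart muscle cell preparations, with 38 genes listed in 5 vessel classes. Membership was set by the list alone: the RefSeq accession of each probe was turned into a gene symbol, and 37 of the 38 names had a probe among the 20886 genes named on the array. The remaining name, Hey1l, matched no symbol, and the related genes Hey1 and Heyl are given further on as genes outside the list. There were 20 pan-endothelial genes, 3 capillary, 7 arterial (6 with a probe), 5 venous and 3 lymphatic genes. The classes follow the vessel each gene is best known for, and several belong to more than 1, such as Emcn in veins and capillaries. All 37 genes were well above background on all 4 arrays, so a filter on dim probes removed none of them.

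The mice were 10-week-old males that carried Cre under the αMHC promoter together with a tetO transgene for the 4 Yamanaka (OSKM) factors Pou5f1, Sox2, Klf4 and Myc. Controls were injected with PBS and the other group with doxycycline for 2 days, after which heart muscle cells were isolated, and each group had 2 arrays. Both groups carried the same alleles, so the comparison covers the drug and the factors together. The αMHC promoter is active in heart muscle, whereas the genes described here mark the lining of vessels. The labels do not state whether each array had its own animal, so p-values measure the scatter of these 4 samples, and that may be technical. Heart muscle markers were high on every array, and all 11 of those checked (among them Myh6 and Tnnt2) were well above background on all 4.

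Endothelial cells line every vessel and depend on VEGF receptors, angiopoietin receptors and the ETS and SoxF families of transcription factors. Arterial cells use Notch signalling, ephrin-B2 and gap junction connexins, venous cells use Nr2f2 and the receptor Ephb4, and lymphatic cells use the VEGF-C receptor Flt4. Capillaries make up most of the vessel bed of heart muscle and lie against the muscle cells. A heart muscle cell preparation can therefore carry endothelial RNA. In RNA of whole preparations, fewer cells of a type and less RNA per cell cannot be told apart.

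The ETS factors Erg and Fli1 are themselves in the list, and ETS factors bind a GGAA core. Promoters of members are shown here for the 2 with the highest and the 2 with the lowest difference between groups, among those with an entry in the RefSeq promoter table (build GRCm38.p6), which held 24 of the 37 genes. Each line gives the 250 bases before the annotated start, 5′ to 3′ on the strand of the gene, and capitals mark AGGAAG, or the form of it that starts with C, on either strand. Positions are chr6:55336049-55336298, plus strand for Aqp1, chr16:18776597-18776846, plus strand for Cldn5, chr8:71395802-71396051, minus strand for Ushbp1 and chr3:97032152-97032401, plus strand for Gja5.
Aqp1: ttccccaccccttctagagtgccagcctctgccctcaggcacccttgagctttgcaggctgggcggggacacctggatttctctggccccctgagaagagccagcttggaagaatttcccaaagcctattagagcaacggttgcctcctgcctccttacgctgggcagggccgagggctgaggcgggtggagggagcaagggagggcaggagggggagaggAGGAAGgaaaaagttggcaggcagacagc
Cldn5: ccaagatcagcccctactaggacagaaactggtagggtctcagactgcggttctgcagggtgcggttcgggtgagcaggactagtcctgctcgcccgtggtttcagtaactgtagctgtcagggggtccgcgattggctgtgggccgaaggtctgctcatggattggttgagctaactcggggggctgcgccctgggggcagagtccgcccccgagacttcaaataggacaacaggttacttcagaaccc
Ushbp1: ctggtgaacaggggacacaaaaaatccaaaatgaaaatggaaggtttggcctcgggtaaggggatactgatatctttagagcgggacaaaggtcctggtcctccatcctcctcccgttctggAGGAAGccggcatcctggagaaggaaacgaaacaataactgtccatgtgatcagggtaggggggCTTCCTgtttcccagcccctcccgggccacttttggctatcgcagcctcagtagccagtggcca
Gja5: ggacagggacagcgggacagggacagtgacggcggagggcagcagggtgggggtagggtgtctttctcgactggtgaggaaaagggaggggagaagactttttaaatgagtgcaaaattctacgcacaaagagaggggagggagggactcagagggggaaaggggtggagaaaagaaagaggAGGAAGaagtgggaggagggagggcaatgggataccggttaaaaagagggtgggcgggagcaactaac
A match was found in 14 of the 29 promoters listed for the 24 genes (48.3%), against 12880 of all 32851 promoters in the table (39.2%). The form that starts with A was in 48.3% of the 29 against 29.5% of all, and the form that starts with C in 3.45% against 13.6%. The letters TGGGAA, bound by the Notch partner RBPJ and searched on both strands, were in 20.7% of the 29 and 21.6% of all. Each of these hexamers holds the letters GGAA and was counted on its own. Some of the 29 windows belong to 1 gene and overlap each other. A match describes the letters of this window and is not a measured binding site.

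Levels are log2 processed signals less that array's 75th percentile, a difference is doxycycline minus control on that scale, and a threshold of 0.05 was applied to p-values adjusted over all genes tested. The 75th percentile of the signal lay between 112 and 248 on the 4 arrays, 50.6% to 51.8% of spots were well above background, and no spot was saturated. The median coefficient of variation of repeated spots was 8.97% for control array 1 and 3.99% to 4.85% elsewhere. Over 12542 genes the arrays correlated least for control array 1 with doxycycline array 1 (r = 0.909) and most for the doxycycline arrays with each other (r = 0.971). These correlations run over genes, which are not replicates. Because control array 1 stands apart, differences are also given without it. Control arrays held positions 1 and 2 and doxycycline arrays positions 3 and 4 of 1 slide, so position and treatment cannot be told apart.

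The largest feature of the endothelial genes was a gap between the 2 control arrays. Control array 1 exceeded control array 2 for 36 of 37 members, and by at least 1 on the log2 scale for 31 of them, where 46.6% and 17.1% of all genes tested did so. The median gap was 1.63, against -0.08 over all genes. Flt1, which encodes a VEGF receptor, had the widest gap among the members at 2.16 (4.46-fold), and the water channel gene Aqp1 was the 1 member that went the other way, at -0.82. Both doxycycline arrays lay between the 2 control arrays for 19 members. Control array 1 was the highest of the 4 arrays for 30 members and control array 2 the lowest for 25. The doxycycline arrays were closer to each other. Their median absolute gap was 0.24, against 1.63 for the controls, and doxycycline array 1 was below array 2 for 20 members, where 50.3% of all genes were.

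**Figure D1:**
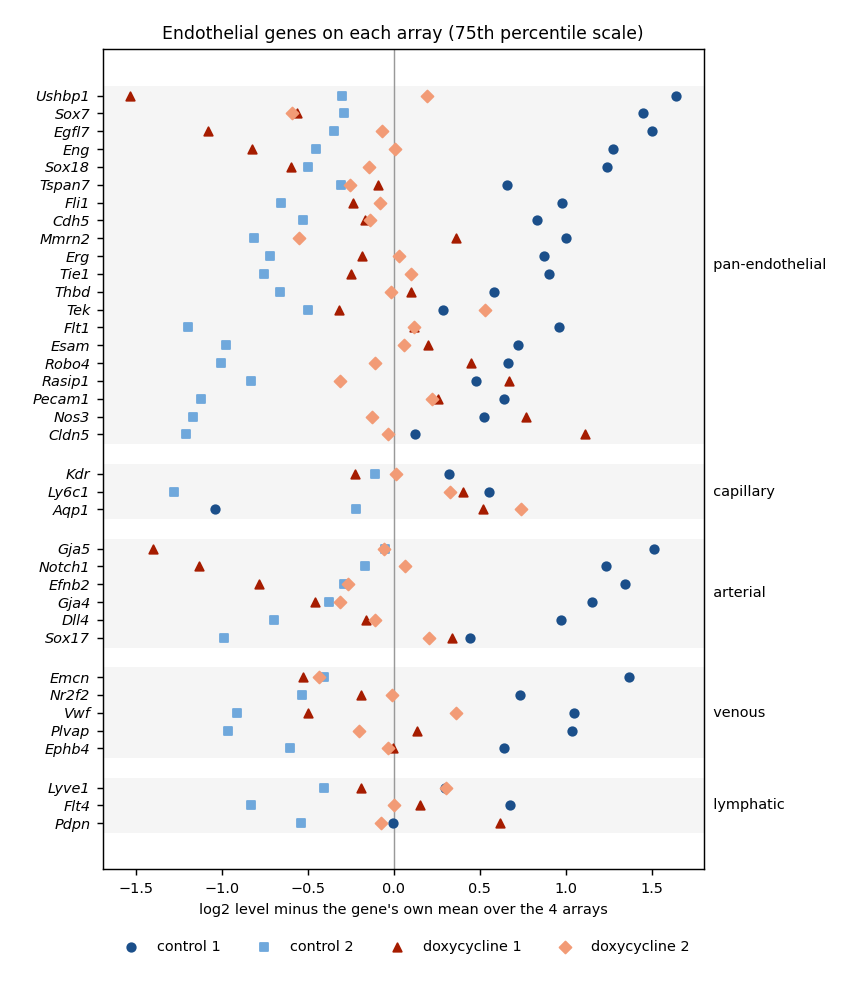
Level of each of the 37 endothelial genes on each of the 4 arrays, as the log2 level minus the gene's own mean over the 4 arrays (x axis), by vessel class. Control array 1 (dark circles) lies to the right of control array 2 (light squares) for 36 of the 37 genes, and the doxycycline arrays lie between them for 19.

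None of the 37 endothelial genes passed the limma test between doxycycline and control, where 0 of 12542 genes (0%) passed. Their adjusted p-values ran from 0.621 to 0.996. With an unadjusted p under 0.05, 1 member was higher (Aqp1) and 0 were lower, where 3.17% of all genes were higher and 3.89% lower. The median difference of the members was -0.15, against -0.06 for all genes, with single members from -1.46 (Gja5) to 1.26 (Aqp1). Means were above control for 15 members and below for 22, where 45.2% of all genes were above and 54.8% below. The doxycycline arrays both stood above the controls for 1 member (Aqp1), where 14.5% of all genes did so, and both below for 3 (Sox7, Emcn and Gja5), where 20.8% did so. Without control array 1 the median difference turned to 0.60, with all genes at -0.11: 29 members then had a mean above control array 2 (41.6% of all genes), with both doxycycline arrays above it for 26 (28.4%) and both below it for 3 (44.3%). Without control array 2 the median was -0.84. With arrays scaled to their median in place of the 75th percentile, all genes stood at 0.29 and the members at 0.20. The sign of the set's median thus changed with the control array used and with the scaling.

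**Figure D2:**
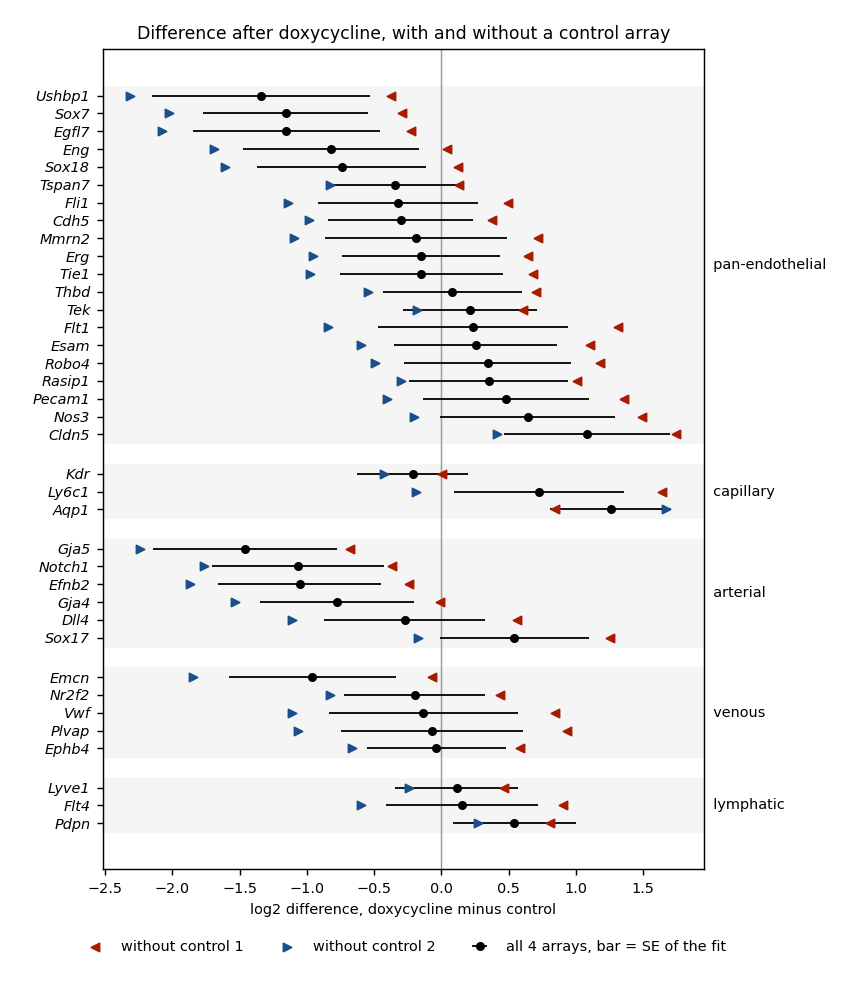
Log2 difference, doxycycline minus control, of each of the 37 endothelial genes with all 4 arrays (black, bar = SE of the limma fit, n = 2 per group), without control array 1 (left-pointing) and without control array 2 (right-pointing). The 2 single-control values lie on opposite sides of 0 for most genes, while Aqp1, Cldn5 and Pdpn are above 0 and Ushbp1, Sox7, Egfl7, Gja5, Notch1, Efnb2, Gja4 and Emcn below 0 with either.

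Among pan-endothelial genes, 0 of 20 passed, 9 means were above control and 11 below, and the median difference was -0.15 (0.66 without control array 1 and 0.20 with arrays scaled to their median). Of the 4 junction genes, 3 had means above control and none passed. Pecam1, an adhesion molecule at contacts between endothelial cells, read 1.57 on control array 1, -0.19 on control array 2, 1.18 on doxycycline array 1 and 1.14 on doxycycline array 2, so the groups overlapped, and its difference was 0.48 ± 0.62 (SE, n = 2 per group, adjusted p = 0.956). Cldn5, the main tight junction protein of endothelium, read 2.78 on control array 1, 1.45 on control array 2, 3.77 on doxycycline array 1 and 2.63 on doxycycline array 2, a difference of 1.08 ± 0.62 (SE, n = 2 per group, adjusted p = 0.845). Doxycycline array 1 was its highest array, and control array 1 stood just above doxycycline array 2. The adhesion molecule gene Esam differed by 0.25 and Cdh5, which encodes the cadherin of endothelial junctions, by -0.30. Cdh5 read 3.37 and 2.01 in control against 2.37 and 2.40 after doxycycline, with both doxycycline arrays between the controls. The differences of these 4 genes without control array 1 were Pecam1 1.36, Cldn5 1.75, Esam 1.11 and Cdh5 0.38.

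The receptor genes did not move alike. Flt1 read 5.70 on control array 1, 3.54 on control array 2, 4.86 on doxycycline array 1 and 4.86 on doxycycline array 2, and the doxycycline arrays matched each other while the controls differed. Tie1, an endothelial receptor tyrosine kinase, read 2.62 and 0.96 in control against 1.47 and 1.82 after doxycycline, and Tek, which encodes the angiopoietin receptor Tie2, read -0.04 and -0.82 in control against -0.64 and 0.21 after doxycycline. Both overlapped, with differences of -0.15 and 0.21. Eng, a co-receptor for TGF-beta family ligands, was low on doxycycline array 1 in particular, at 4.15 and 2.42 in control against 2.04 and 2.87 after doxycycline, and differed by -0.82 ± 0.65 (SE, n = 2 per group, adjusted p = 0.897). The guidance receptor gene Robo4 differed by 0.34. Leaving out control array 1 gave Flt1 1.31, Tie1 0.68, Tek 0.60, Eng 0.04 and Robo4 1.18.

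The ETS transcription factor genes Erg and Fli1 had differences near the median of the pan-endothelial set, while Ets1, a related gene outside the list that was picked after its values were seen, differed by -0.79 (-0.04 without control array 1). Erg read -0.79 and -2.39 in control against -1.85 and -1.63 after doxycycline and Fli1 2.04 and 0.41 in control against 0.82 and 0.98 after doxycycline, with differences of -0.15 and -0.32 (0.64 and 0.49 without control array 1). Of the SoxF genes, Sox7 was below both controls on both doxycycline arrays. It read 1.98 on control array 1, 0.24 on control array 2, -0.04 on doxycycline array 1 and -0.06 on doxycycline array 2, a difference of -1.16 ± 0.61 (SE, n = 2 per group, adjusted p = 0.820) that was -0.29 without control array 1. Sox18 differed by -0.74 and turned to 0.13 without control array 1. Sox17, the SoxF member tied to arteries, differed by 0.54 (1.26 without that array).

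Of the other pan-endothelial genes, Egfl7 and Ushbp1 had the lowest differences. Egfl7, a secreted protein whose gene hosts a microRNA of endothelium, read 7.74 on control array 1, 5.89 on control array 2, 5.15 on doxycycline array 1 and 6.17 on doxycycline array 2, a difference of -1.15 ± 0.70 (SE, n = 2 per group, adjusted p = 0.860). Ushbp1, which encodes a harmonin-binding protein, read 5.36 on control array 1, 3.42 on control array 2, 2.19 on doxycycline array 1 and 3.91 on doxycycline array 2, a difference of -1.34 ± 0.81 (SE, n = 2 per group, adjusted p = 0.859). Both were lowest on doxycycline array 1, and doxycycline array 2 lay between the controls. A second Ushbp1 probe differed by -1.33. Nos3, the endothelial nitric oxide synthase, went the other way at 4.46 and 2.77 in control against 4.70 and 3.81 after doxycycline, and differed by 0.64 (0.95 by its second probe). Rasip1, a Ras-interacting protein needed to open vessel lumens, differed by 0.35, the anticoagulant receptor gene Thbd by 0.08, the matrix protein gene Mmrn2 by -0.19 and the tetraspanin gene Tspan7 by -0.35. All of these overlapped between groups. With control array 1 left out they gave Egfl7 -0.23, Ushbp1 -0.37, Nos3 1.49, Rasip1 1.01, Thbd 0.71, Mmrn2 0.72 and Tspan7 0.13.

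The 3 capillary genes gave the highest class median, 0.73 (0.85 without control array 1 and -0.19 without control array 2), and 0 of 3 passed. Aqp1, a water channel of capillary endothelium that red cells also carry, read 4.88 on control array 1, 5.70 on control array 2, 6.44 on doxycycline array 1 and 6.66 on doxycycline array 2. Both doxycycline arrays were above both controls, and the difference was 1.26 ± 0.45 (SE, n = 2 per group, adjusted p = 0.621), or 2.39-fold. It was 0.85 without control array 1. Ly6c1, a surface protein of capillary endothelium, read 7.53 and 5.70 in control against 7.38 and 7.31 after doxycycline, where control array 2 alone was low, and differed by 0.73 (1.01 by its second probe). Its near-identical neighbour Ly6c2 may share the signal. Kdr, the main VEGF receptor, read 3.44 and 3.01 in control against 2.89 and 3.12 after doxycycline. A second Kdr probe read 4.52 and 2.68 in control against 2.00 and 2.43 after doxycycline, a difference of -1.39 where the brighter probe gave -0.21. The 2 Kdr probes thus disagree on its size and on whether the groups overlap. For the second probe both doxycycline arrays were below both controls, while the brighter probe overlapped. Ly6c1 stood at 1.64 and the brighter Kdr probe at 0.0017 without control array 1.

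The 6 arterial genes gave the lowest class median, -0.92, with 5 means below control, 1 above and 0 of 6 past the test. Without control array 1 the median was -0.13, near the -0.11 of all genes. Gja5, the connexin of arteries, atria and the conduction system, read -0.21 on control array 1, -1.77 on control array 2, -3.12 on doxycycline array 1 and -1.78 on doxycycline array 2. It was lowest on doxycycline array 1, whereas doxycycline array 2 was level with control array 2, and the difference was -1.46 ± 0.68 (SE, n = 2 per group, adjusted p = 0.776). Notch1, the receptor at the head of arterial Notch signalling, read 0.99 on control array 1, -0.41 on control array 2, -1.38 on doxycycline array 1 and -0.17 on doxycycline array 2, a difference of -1.07 ± 0.64 (SE, n = 2 per group, adjusted p = 0.856). The ephrin-B2 gene Efnb2 read 1.31 and -0.32 in control against -0.82 and -0.30 after doxycycline and the connexin gene Gja4 1.97 and 0.44 in control against 0.36 and 0.50 after doxycycline, with differences of -1.05 and -0.78. For these 4 genes doxycycline array 1 was the lowest array. The Notch ligand gene Dll4 read -0.25 and -1.92 in control against -1.39 and -1.34 after doxycycline and differed by -0.27. Sox17 read 1.79 and 0.36 in control against 1.68 and 1.55 after doxycycline and was the 1 arterial gene above control, by 0.54 (0.13 by its second probe). The other arterial genes, without control array 1, gave Gja5 -0.68, Notch1 -0.37, Efnb2 -0.24, Gja4 -0.01 and Dll4 0.56, so that of Gja4 was near 0.

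Gja5 is also a gene of atrial muscle. The median deviation of atrial markers from their own 4-array means was highest on control array 1 and lowest on doxycycline array 1. Their median level was instead lowest on control array 2, at 1.27. Of 7 atrial and conduction markers, 5 were tested, while Hcn4 and Shox2 were too dim (not well above background) on every array. The atrial myosin light chain gene Myl7 read 3.97 on control array 1, 1.01 on control array 2, -0.59 on doxycycline array 1 and 1.94 on doxycycline array 2. Over the 5 markers the median deviation from the gene's own 4-array mean was 1.33 and -0.57 for the controls with -0.98 and 0.36 for doxycycline arrays 1 and 2, and their summed signal, in multiples of the 75th percentile, was 168 and 178 in control against 159 and 89.6 after doxycycline. Single atrial genes differed in their order of arrays. Myl4, an atrial light chain gene, read 6.17 and 3.44 in control against 2.58 and 4.60 after doxycycline, high on control array 1 and low on doxycycline array 1 as Gja5 was. The natriuretic peptide gene Nppa read 5.92 and 7.33 in control against 7.20 and 5.54 after doxycycline, with the reverse order within each group. Sln read 3.83 and 1.05 in control against 1.51 and 3.59 after doxycycline. Tbx3 read 2.51 and 1.27 in control against 1.39 and 1.65 after doxycycline. Both Sln and Tbx3 were lowest on control array 2, unlike Gja5. The part of atrial muscle in the Gja5 values was not tested.

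Venous genes had a median difference of -0.13 (0.59 without control array 1), and 0 of 5 passed. The median was 0.21 with arrays scaled to their median and 0.063 with normexp background correction. By the probe used for each gene all 5 means were below control, though only Emcn differed by more than 0.20. Second probes gave Ephb4 0.34, above control, and Plvap -0.34. Nr2f2, which sets venous identity, read 0.29 and -0.98 in control against -0.63 and -0.45 after doxycycline, and Ephb4, the receptor for ephrin-B2, read 2.08 and 0.83 in control against 1.43 and 1.40 after doxycycline. Vwf, the clotting factor stored in endothelial granules, read 3.54 and 1.58 in control against 2.00 and 2.86 after doxycycline, and Plvap, which forms the diaphragms of fenestrae and caveolae, read 1.06 and -0.94 in control against 0.16 and -0.17 after doxycycline. For these 4 genes both doxycycline arrays lay between the 2 controls. Emcn, a sialomucin of veins and capillaries, was the exception at 1.85 on control array 1, 0.07 on control array 2, -0.04 on doxycycline array 1 and 0.05 on doxycycline array 2, a difference of -0.96 ± 0.62 (SE, n = 2 per group, adjusted p = 0.878) that was -0.07 without control array 1. The other venous genes then gave Nr2f2 0.44, Ephb4 0.59, Vwf 0.85 and Plvap 0.93.

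The 3 lymphatic genes were all above control on average, with a median difference of 0.15 (-0.066 with normexp background correction) and 0 past the test. Flt4 read -2.29 and -3.79 in control against -2.81 and -2.96 after doxycycline and differed by 0.15. Lyve1, a hyaluronan receptor of lymphatic vessels that tissue macrophages also express, read -1.03 and -1.73 in control against -1.52 and -1.02 after doxycycline. Pdpn, a mucin-like protein also made by mesothelium, read -1.0 and -1.54 in control against -0.38 and -1.07 after doxycycline, a difference of 0.54 ± 0.46 (SE, n = 2 per group, adjusted p = 0.906). Macrophage markers (7 of 9 tested, Cd163 too dim on every array) had a median difference of -1.15 (-0.42 without control array 1). Mesothelial markers (5 of 5 tested) had one of -0.46 (-0.70) and went both ways, with Msln at 0.54, Wt1 at 0.11 and the other 3 below control. The part of these cells in the Lyve1 and Pdpn values was not tested. The median of the lymphatic genes was 0.81 without control array 1 and -0.24 without control array 2, and single genes without control array 1 gave Flt4 0.91, Lyve1 0.46 and Pdpn 0.81.

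To compare endothelial genes with each other, each array was also set so that the median deviation of the 20 pan-endothelial genes from their own 4-array means was 0. This scale was chosen after the data had been seen. The 2 control arrays were then close, with a median absolute gap of 0.22 over the 37 members in place of 1.63, and 30 members had a gap under 0.5. By construction this scale removes any shift that the endothelial genes share. It therefore describes unequal differences within the set and says nothing of the amount of endothelial RNA. Both doxycycline arrays lay above both controls for 11 members, where 6.36% of all genes did, and below both for 13, where 9.75% did. Because the scale was set on 20 of the 37 members, it closes the gap between the controls for the members and pulls the controls apart for other genes, so the members' counts cannot be read against these shares. No member passed the limma test on this scale, where 24 of all genes (0.191%) did, among them Aplnr, which is described with the genes outside the list. The SE of every gene was 0.97 there, so single values are given on it as a description. Over all genes the median difference moved from -0.06 to 0.11 on this scale.

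On the pan-endothelial scale both doxycycline arrays lay below both controls for 5 of 6 arterial genes, while Cldn5, Nos3 and Ly6c1 lay above. Gja5 read -1.06 on control array 1, -1.08 on control array 2, -3.00 on doxycycline array 1 and -1.73 on doxycycline array 2, a difference of -1.29. Notch1 read 0.14 and 0.29 in control against -1.25 and -0.12 after doxycycline, Efnb2 0.46 and 0.38 in control against -0.69 and -0.25 after doxycycline and Gja4 1.11 and 1.14 in control against 0.49 and 0.55 after doxycycline. In each of these 4 arterial genes the controls were nearly level and both doxycycline arrays were below them, and the differences were -1.29, -0.90, -0.88 and -0.61. Dll4 differed by -0.10 and Sox17 by 0.71, so the arterial genes did not all follow. Sox7 read 1.12 and 0.93 in control against 0.09 and -0.01 after doxycycline and Emcn 1.0 and 0.77 in control against 0.08 and 0.10 after doxycycline, and the doxycycline arrays of each were nearly level. Egfl7, Ushbp1, Eng and Sox18 were also below on both doxycycline arrays, with differences of -0.98, -1.17, -0.65 and -0.57, more so on array 1.

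In the other direction, Cldn5 read 1.93 and 2.15 in control against 3.90 and 2.68 after doxycycline, Nos3 3.61 and 3.46 in control against 4.83 and 3.86 after doxycycline and Ly6c1 6.68 and 6.40 in control against 7.51 and 7.36 after doxycycline. Their differences were 1.25, 0.81 and 0.90, and those of Pecam1 and Sox17 were 0.65 and 0.71. For all 5 genes both doxycycline arrays were above both controls. Aqp1 was less certain on this scale, since its controls read 4.02 and 6.39 against 6.57 and 6.71. Without control array 1 its difference was 0.24. The ETS genes Erg and Fli1, the receptor gene Tie1, Cdh5 and the venous genes Nr2f2, Ephb4, Vwf and Plvap differed by between -0.15 and 0.13. Without control array 1 the class medians were -0.73 for arterial and 0.24 for capillary genes, with all genes at -0.71. The arterial value was thus near that of all genes.

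**Figure D3:**
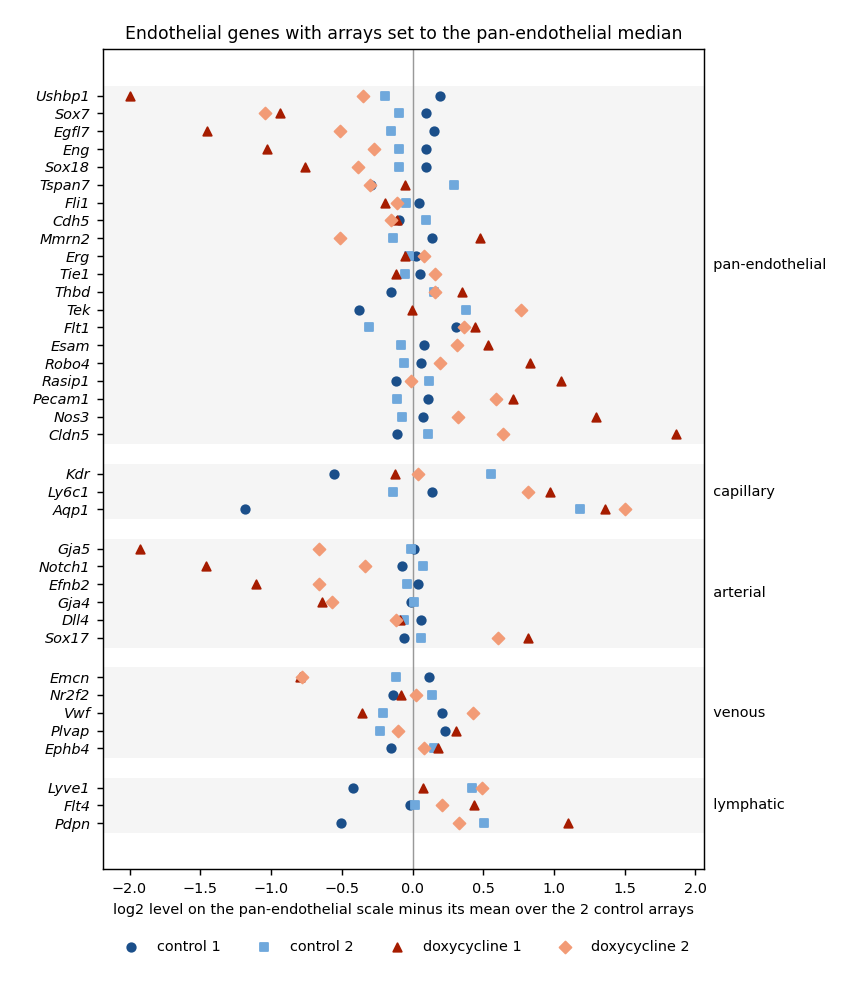
The same 37 genes with each array set to the median of the pan-endothelial genes, as the log2 level minus the mean of the 2 control arrays (x axis). The controls (circles and squares) close up around 0 for most genes, with Gja5, Notch1, Efnb2, Gja4, Sox7 and Emcn below and Cldn5, Nos3, Ly6c1, Pecam1 and Sox17 above on both doxycycline arrays.

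A further 57 endothelial genes outside the list were measured the same way, of which 56 had a probe and 50 were tested. None passed. At an unadjusted p under 0.05, 2 were higher and 6 lower, where 3.17% of all genes were higher and 3.89% lower. Their median difference was -0.42 (0.22 without control array 1). Control array 1 exceeded control array 2 for 46 of the 50, where 46.6% of all genes did so. By class the medians were -0.27 over 18 pan-endothelial, -0.05 over 8 capillary, -0.99 over 10 arterial, -0.12 over 4 venous, -0.43 over 6 lymphatic and -0.49 over 4 endocardial genes. The arterial class was the lowest here too, with 7 means below control and 3 above (Notch4 0.80, Fbln5 0.33 and Jag1 0.04). These genes were read on the same 4 arrays and listed with earlier results known, so this is no independent test. The median of this arterial class was -0.40 without control array 1.

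Described next are the genes with the smallest p in each class. They were picked for that p from the same arrays, and none passed with the main settings. Their values therefore do not show that single genes went beyond their class. Heyl, a target of Notch that pericytes also express, read 0.71 on control array 1, -0.63 on control array 2, -1.74 on doxycycline array 1 and -1.50 on doxycycline array 2, a difference of -1.66 ± 0.54 (SE, n = 2 per group, adjusted p = 0.539), and the netrin receptor gene Unc5b read 2.54 and 1.08 in control against -0.18 and 0.45 after doxycycline, a difference of -1.67 ± 0.58 (SE, n = 2 per group, adjusted p = 0.60). Both lay below both controls on both doxycycline arrays. The Notch-responsive factor gene Hey1, added here as a relative of the unmatched name, differed by -1.30 (-0.49 without control array 1). Aplnr, the apelin receptor of veins and growing capillaries, read 0.46 on control array 1, -1.39 on control array 2, -4.78 on doxycycline array 1 and -5.82 on doxycycline array 2. Neither doxycycline array was well above background for it, and it was at least 13.6-fold lower after doxycycline (adjusted p = 0.165), a bound taken against the lowest level among probes well above background. The bound was 7.16-fold without control array 1. On the pan-endothelial scale, chosen after the data were seen, its limma adjusted p was 0.00233. Every gene had the same SE there, and its doxycycline values were background readings. That p is therefore a description and adds no separate evidence. Lrg1, a secreted glycoprotein that other inflamed tissues also make, read 1.84 and 3.18 in control against 6.27 and 4.73 after doxycycline, a difference of 2.99 ± 0.68 (SE, n = 2 per group, adjusted p = 0.335) that was 2.32 without control array 1.

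Among pan-endothelial genes outside the list, Grrp1 read 2.35 and 0.84 in control against 3.78 and 2.97 after doxycycline, a difference of 1.78 ± 0.61 (SE, n = 2 per group, adjusted p = 0.585), and Myct1 read 1.64 and -0.02 in control against -1.72 and -0.38 after doxycycline, a difference of -1.86 ± 0.70 (SE, n = 2 per group, adjusted p = 0.654). Of the capillary genes the chemokine gene Cxcl12 differed by -1.43 (-0.54 by its second probe). On that second probe both doxycycline arrays lay between the controls. The fatty acid transporter gene Cd36, which heart muscle also expresses, differed by 0.71. Itga9, an integrin of lymphatic valves, differed by -1.39 and the ion transport regulator gene Fxyd6 by -0.88. Plxnd1, a semaphorin receptor grouped here with the endocardial genes, read 5.37 and 3.63 in control against 2.54 and 2.70 after doxycycline, a difference of -1.88 ± 0.62 (SE, n = 2 per group, adjusted p = 0.545), and the natriuretic peptide receptor gene Npr3 differed by -0.54. Without control array 1, Grrp1 stood at 2.54, Myct1 at -1.04, Plxnd1 at -1.02, Heyl at -0.99, Unc5b at -0.94, Cxcl12 at -0.66, Cd36 at 0.80, Itga9 at -1.50, Fxyd6 at -0.22 and Npr3 at -0.09.

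Markers of other cells that share the vessel wall or the blood also differed between the control arrays. Over 8 fibroblast markers, all tested, the median deviation from the gene's own 4-array mean was 2.07 and 0.24 for the controls with -1.61 and -0.70 for doxycycline arrays 1 and 2. For 10 pericyte and smooth muscle markers it was 0.90 and -0.28 for the controls with -0.38 and -0.55 for doxycycline arrays 1 and 2, and for 6 of 8 red cell markers it was 1.93 and -0.34 for the controls with -0.90 and -0.63 for doxycycline arrays 1 and 2. The 37 endothelial members stood at 0.83 and -0.61 for the controls with -0.17 and -0.03 for doxycycline arrays 1 and 2. In all of these, control array 1 was the highest array. For 11 heart muscle markers it was the lowest, at -0.40 against 0.32 on control array 2. The part of these cells in the endothelial values was not tested.

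Fibroblast, pericyte and red cell markers had lower differences between groups than the endothelial members, and the gap between lists was not tested. The median difference was -2.31 for fibroblast markers (-1.39 without control array 1), -0.79 for pericyte and smooth muscle markers (-0.09), -1.58 for red cell markers (-0.46) and -0.95 for 3 of 4 Schwann cell markers (-0.24), with the value without control array 1 in parentheses. It was -0.15 (0.60) for the endothelial members. Members of these lists were uneven. All 8 fibroblast means were below control, from -3.76 for Lum, with the collagen genes Col1a1 and Col1a2 at -2.93 and -2.49, to -0.44, -0.33 and -0.32 for Tcf21, Pdgfra and Dcn, which stood at 0.02, 0.50 and 0.52 without control array 1. Of the pericyte and smooth muscle genes, 8 means were below control, among them Rgs5 at -0.51 and Pdgfrb at -0.99 (0.06 and -0.25 without control array 1), and 2 were above, Cnn1 at 1.17 and Myh11 at 0.34. The summed signal of the endothelial members, in multiples of the 75th percentile, was 779 and 281 in control against 499 and 515 after doxycycline, that of fibroblast markers 216 and 66.9 in control against 77.3 and 83.2 after doxycycline, of pericyte and smooth muscle markers 85.2 and 68.8 in control against 35.0 and 27.3 after doxycycline and of red cell markers 344 and 71.9 in control against 48.6 and 58.0 after doxycycline. Aqp1 ran opposite to the red cell markers, whose median was lowest on the doxycycline arrays. Of platelet markers, which could add to Vwf and Pecam1, Itga2b was too dim on every array, and Pf4 read 2.29 and 1.15 in control against 1.78 and 0.02 after doxycycline. Of 5 lymphocyte markers 1 was tested (Cd3e, -0.28).

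**Figure D4:**
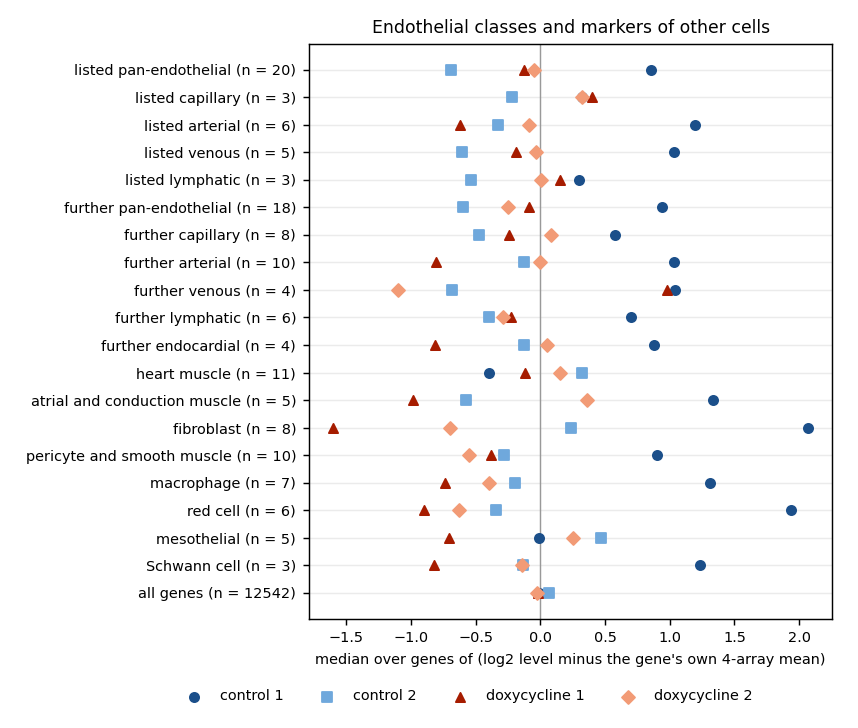
Median over the genes of each list of the log2 level minus the gene's own 4-array mean, for each of the 4 arrays (lists with at least 3 genes tested; n = genes tested). Control array 1 is the highest array for all endothelial classes drawn except the 3 capillary members, where doxycycline array 1 is, and fibroblast markers are lower on both doxycycline arrays than on either control.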

How the data were processed

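Total RNA of 4 heart muscle cell preparations was hybridised to 1-colour (Cy3) arrays, and each array took its group from its title. Spot intensity was extracted by the authors with Feature Extraction 10.7.1.1 (Agilent), per the file headers. As deposited, processed intensity has background and spatial trend removed array by array, on a linear scale, with no normalization across arrays. Median spot and background intensity, and other columns holding flags per spot, were taken as deposited. Later steps of the authors, if any, are not given in the sources used here. The design build is mm9. Probe accessions, versions removed, were named through a RefSeq table (assembly GRCm38.p6): 27508 of 39429 probes, for 20886 genes.

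Log2 of the deposited processed intensity, minus the array's 75th percentile over non-control spots, gave the level. Outlier spots were dropped (35 probes lost every spot on an array) and spots averaged per probe. Probes had to be well above background on 2 or more arrays, in at least 0.5 of their spots, and each gene took its brightest probe: 12542 genes remained. Tests were two-sided in limma 3.58.1 (R 4.3.3), adjusted by Benjamini-Hochberg across these genes at 0.05, with 2 residual and 4.69 prior degrees of freedom. An exact permutation of 2 against 2 arrays allows no p below 0.333. The steps were tested on simulated arrays.

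Alternatives were normexp (offset 50, on the median spot signal), quantile and median scaling, no dim-probe filter and one on 4 arrays, the mean of probes, a variance trend, leaving out each array, blocking on replicate number, and an unadjusted p under 0.05 with a difference of at least 1. The pan-endothelial scale was added after seeing the data. Members and lists were chosen with earlier results of these data known. Named genes are all members, the 2 further endothelial genes per class with the smallest p, and the first 2 markers listed for each other cell type where used. Hey1 and the markers named for being too dim, or named beside a member (Pf4, Cd3e, Myl4, Nppa, Lum, Cnn1 and Msln among them), were chosen after their values were seen. Of these, Pf4, Cd3e, Myl4 and Msln were also among the first 2 markers of their lists. Figures used matplotlib 3.10.9. Some list items are not reported here.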

Additional observations from a re-analysis of the deposited data

How the results depend on the processing

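No member passed under any alternative that kept the adjusted threshold, and 1 (Aqp1) passed with an unadjusted p under 0.05 and a difference of at least 1. The direction of most members depended on which array was left out. With each array left out in turn, the median difference ran from -0.84 to 0.60 for all members, -0.90 to 0.66 for pan-endothelial, -0.19 to 0.85 for capillary, -1.65 to -0.13 for arterial, -1.07 to 0.59 for venous and -0.24 to 0.81 for lymphatic genes, the ends being set by the 2 control arrays. Of single members, 26 changed sign when an array was left out, with these ranges: Pecam1 -0.40 to 1.36, Cdh5 -0.98 to 0.38, Kdr -0.43 to 0.0017, Flt1 -0.84 to 1.31, Flt4 -0.60 to 0.91, Tek -0.21 to 0.64, Tie1 -0.98 to 0.68, Eng -1.69 to 0.043, Esam -0.60 to 1.11, Erg -0.95 to 0.64, Fli1 -1.14 to 0.49, Sox17 -0.17 to 1.26, Sox18 -1.61 to 0.13, Robo4 -0.49 to 1.18, Rasip1 -0.30 to 1.01, Vwf -1.11 to 0.85, Plvap -1.07 to 0.93, Nos3 -0.21 to 1.49, Nr2f2 -0.83 to 0.44, Ephb4 -0.66 to 0.59, Dll4 -1.11 to 0.56, Lyve1 -0.24 to 0.46, Thbd -0.54 to 0.71, Mmrn2 -1.10 to 0.72, Tspan7 -0.83 to 0.13 and Ly6c1 -0.19 to 1.64. The other 11 kept their sign, with ranges of Aqp1 0.85 to 1.67, Cldn5 0.42 to 1.75, Pdpn 0.20 to 0.89, Sox7 -2.03 to -0.29, Egfl7 -2.08 to -0.23, Ushbp1 -2.31 to -0.37, Gja5 -2.24 to -0.68, Notch1 -1.76 to -0.37, Efnb2 -1.87 to -0.24, Gja4 -1.54 to -0.013 and Emcn -1.85 to -0.071.

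With arrays scaled to the median, all genes moved to a median of 0.29, and the medians turned to 0.20 for all members, 0.20 for pan-endothelial and 0.21 for venous genes, as did 11 members (Cdh5 0.045, Kdr 0.13, Tie1 0.20, Erg 0.19, Fli1 0.025, Vwf 0.21, Plvap 0.28, Nr2f2 0.15, Ephb4 0.31, Dll4 0.073 and Mmrn2 0.16). With normexp the venous median was 0.063 and the lymphatic -0.066, and 6 members turned (Flt4 -0.25, Vwf 0.063, Plvap 0.097, Ephb4 0.14, Lyve1 -0.066 and Mmrn2 0.043). On the pan-endothelial scale the medians of all members, pan-endothelial and venous genes were 0.021, 0.018 and 0.037, and 5 members turned (Tie1 0.021, Erg 0.016, Vwf 0.037, Plvap 0.10 and Ephb4 0.13). With the mean of a gene's probes Ephb4 0.15 turned, and with quantile normalization Thbd -0.054. No member turned with either other filter, a variance trend or the block, but these settings could not turn any. A variance trend changes only the variances, and the block cannot alter a difference between groups. The probe used for each member was well above background on every array, so either filter kept it. Median scaling and the pan-endothelial scale each subtract 1 value per array, so either moves the differences of all genes by the same amount. Members that turned there had differences close enough to 0 for that shift to change their sign. The cause of the other turns was not tested. Genes called were 0 with the main settings and 95 higher and 33 lower with median scaling. Fits without 1 of the doxycycline arrays leave 1 array in that group, so their calls are not counted here.

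With the replicate number as a replicate block, 0 of 37 members passed, and 152 of all genes were called higher and 143 lower. That fit had 1 residual degree of freedom and used 1 common variance for all genes, so its calls are not evidence of change. The median difference of all members was -0.15, which this block cannot alter. Deviations of same-numbered arrays correlated at r = -0.085 across genes. This correlation runs over genes, which are not replicates, so it cannot tell whether same-numbered arrays share an animal, litter or day. The labels do not state what the number marks.

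Limits are 2 arrays a group, 1 control array that stands apart with noisier spots, slide position shared with treatment, and no group given doxycycline without the factors. The dimmest member, Flt4, is the one nearest the background.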

Other observations

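The adhesion genes that endothelium shows when activated were picked out after their values were seen. Selp, the P-selectin gene, read 0.20 on doxycycline array 1 but -4.75 on array 2, with -4.15 and -5.64 in control. Sele, the E-selectin gene, read -4.17 and -5.09 in control against 0.30 and -5.26. Both selectin genes were well above background on doxycycline array 1 alone, so they were not among the genes tested. The chemokine-binding receptor gene Ackr1, a marker of venules, was likewise above background only there, at -3.61 against -5.19 on doxycycline array 2 and -6.02 and -6.33 in control. Vcam1 was above background on all 4 arrays and read 3.40 on doxycycline array 1 and -0.06 on array 2, with 2.48 and 0.19 in control. Against the lowest level among probes well above background, doxycycline array 1 was at least 18.6-fold higher than array 2 for Selp and at least 19.9-fold higher for Sele, and at least 1.33-fold higher for Ackr1. For Vcam1 the 2 doxycycline arrays differed by 3.46 on the log2 scale. With a single array high, no difference between groups can be drawn from these values.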
